A study of Homo sapiens with 13 samples.

Results

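The 10 genes of the AP-1 and immediate early transcription factor group were followed in MDA-MB-231 cells whose m6A writer subunit VIRMA had been targeted. They were chosen by name, as 10 of the 38616 genes in the count table: the FOS family (FOS, FOSB, FOSL1, FOSL2), the JUN family (JUN, JUNB, JUND), and EGR1, ATF3 and IER2. All 10 were found as 1 row each, and all 10 passed the filter on low values. MDA-MB-231 is an established human line of triple-negative breast cancer, grown here in high-glucose DMEM with serum, and the labels name no stimulation of the cells before RNA was taken.

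All RNA-seq lines were made by lentiviral infection and selection and are given as passage P2. The control line carried a non-targeting control (NTC, genotype Control). Lines labelled sg1 and sg2, called guides here, both carry the genotype KIAA1429 KO, KIAA1429 being the older name of VIRMA, and each of the 3 groups had 3 libraries. Neither the making of a line as a pool or 1 clone nor the origin of its 3 libraries in separate cultures is stated, so the spread that p-values rest on may be technical. For MeRIP-seq, which pulls down fragmented mRNA with an antibody against m6A, 1 pull-down and 1 input library were made from control cells and 1 of each from cells labelled KIAA1429 KD, which the labels do not tie to the sg1 or sg2 line.

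AP-1 is a dimer of basic leucine zipper (bZIP) proteins: FOS proteins cannot pair with themselves and bind DNA only with a partner, commonly a JUN protein, whereas JUN proteins can also pair with each other. FOS, FOSB, EGR1, JUNB, ATF3 and IER2 are immediate early genes, switched on within minutes of growth factor or stress signals without new protein synthesis, through serum response factor with its ETS partners and through CREB-like factors downstream of ERK and p38 kinases. Their mRNAs are short lived, in part through AU-rich elements. FOSL1 (FRA-1) and FOSL2 (FRA-2) are the FOS family members that persist under lasting ERK signalling, and FOSL1 is a well-known AP-1 subunit of invasive breast cancer lines.

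The promoter windows of 5 of the genes are shown because these are the genes whose 6 knockout libraries all lay below all 3 NTC libraries. Each is the 250 bases before the RefSeq gene start on GRCh38.p14, written 5′ to 3′ on the strand of the gene. Capitals mark matches, on either strand, to the CRE core TGACG bound by CREB and ATF proteins, the CArG box bound by serum response factor, the AP-1 site TGANTCA, the EGR site GCGNGGGCG, the ETS site CCGGAA or the TATAAA box. FOS lies at chr14:75278578-75278827 (+ strand), FOSB at chr19:45467746-45467995 (+), JUN at chr1:58784048-58784297 (-), JUNB at chr19:12791236-12791485 (+) and EGR1 at chr5:138465229-138465478 (+).
FOS: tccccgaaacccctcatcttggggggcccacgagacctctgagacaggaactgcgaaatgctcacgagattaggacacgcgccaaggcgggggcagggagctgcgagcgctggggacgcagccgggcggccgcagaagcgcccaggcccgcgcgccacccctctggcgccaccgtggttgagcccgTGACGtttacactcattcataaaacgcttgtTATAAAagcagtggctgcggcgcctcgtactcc
FOSB: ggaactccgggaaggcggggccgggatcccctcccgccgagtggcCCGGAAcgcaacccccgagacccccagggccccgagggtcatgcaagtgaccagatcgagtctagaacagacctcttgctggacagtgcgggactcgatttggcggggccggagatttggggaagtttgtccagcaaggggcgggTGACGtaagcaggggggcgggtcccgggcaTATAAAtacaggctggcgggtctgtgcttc
JUN: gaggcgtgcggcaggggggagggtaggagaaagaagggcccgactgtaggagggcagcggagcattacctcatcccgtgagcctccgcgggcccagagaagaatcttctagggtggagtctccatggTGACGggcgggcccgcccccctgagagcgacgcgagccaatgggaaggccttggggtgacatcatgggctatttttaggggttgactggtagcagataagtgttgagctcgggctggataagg
JUNB: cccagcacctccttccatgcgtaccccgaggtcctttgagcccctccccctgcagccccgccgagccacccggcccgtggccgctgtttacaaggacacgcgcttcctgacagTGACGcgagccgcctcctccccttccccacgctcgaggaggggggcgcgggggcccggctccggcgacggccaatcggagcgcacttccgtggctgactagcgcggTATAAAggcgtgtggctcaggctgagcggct
EGR1: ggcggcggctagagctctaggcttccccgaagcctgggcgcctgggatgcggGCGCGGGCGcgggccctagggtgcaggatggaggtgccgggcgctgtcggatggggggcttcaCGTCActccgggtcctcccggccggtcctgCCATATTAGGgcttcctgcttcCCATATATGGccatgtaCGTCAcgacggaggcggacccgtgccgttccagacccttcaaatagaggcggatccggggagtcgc

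All 5 windows held the CRE core. Of the 10 genes, 9 matched an entry in the RefSeq promoter table, and the CRE core stood in 8 of these 9, against 21.2% of the 35114 promoter windows of the same length. The shares here are over windows, and a gene can have more than 1. Each of the 9 genes was counted if any of its windows held a match. A CArG box was found in EGR1 only, which held 2 of them, 105 to 96 and 83 to 74 bases before the start, against 1.16% of all windows. TATAAA stood in 4 of the 9 (FOS, FOSB, JUNB and a window of ATF3) and in 10.7% of all windows, and CCGGAA in FOSB and IER2 and in 14.5%. The EGR site was found in EGR1 alone of the 9 and in 8.41% of all windows. No match to TGANTCA was found in the windows of the 9 genes, where 6.57% of all windows had one. These matches describe letters in the window and do not show that a factor binds there.

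The RNA-seq libraries held 13975173 to 22051705 gene reads. VIRMA itself, the check of the labels, had normalized read counts of 2196, 2122 and 2689 (NTC), 1437, 1559.6 and 1613 (sg1) and 1566, 1989.9 and 2169.7 (sg2), so that the sg2 libraries overlapped NTC (log2 fold change -0.30 ± 0.147 SE, limma adjusted p = 0.236; sg1 -0.60 ± 0.147, adjusted p = 0.0718). Edits made by a guide need not lower the mRNA of their target. Library sg2-1 differed from both other sg2 libraries, with a median absolute log2 difference over tested genes of 0.513 and 0.556 against 0.125 to 0.2 for every other pair of the same group. VIRMA, VIM and CAV1 of sg2-1 lay within the range of the sg1 libraries, and those of sg2-2 and sg2-3 above it. CAV1 was 14836 in sg2-1, 31581 in sg2-2 and 30424 in sg2-3. CD44, EGFR and AXL of sg2-1 lay above every sg1 library, and MSN below. Why sg2-1 differed was not tested. Library sg1-3 was high in some fibroblast markers: the 9 fibroblast genes summed to 5371 there and to 148.6 to 297.8 elsewhere. SPARC, at 3616, made up most of that sum, and COL1A2 was at 591. COL1A1 averaged 93.5 ± 21.9 in sg1 and 46.3 ± 15.6 in NTC (SD, n = 3), so it did not stand out alike in sg1-3. The 5 leukocyte genes summed to 172.2 in sg1-3 and to 45.3 to 77.6 elsewhere. The 11 epithelial genes summed to 25936.7 to 28392.5 (NTC), 20263.3 to 22521.7 (sg1) and 20972.3 to 30943.1 (sg2). No gene of these lists was at 0 in all 9 libraries, and the 6 genes used to define MDA-MB-231 (VIM, CD44, EGFR, AXL, MSN, CAV1) were abundant in every library. The part of these libraries and markers in the results was not tested. Several results are also given without sg2-1, and some without sg1-3.

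FOS was the gene of the 10 with the clearest change, lower with both guides, and 4 others (FOSB, JUN, JUNB, EGR1) were lower with sg2. With sg1, 1 of the 10 genes fell and 0 rose, against 0.0814% of all tested genes lower and 0.113% higher. With sg2, 5 fell and 0 rose, against 4.57% and 4.19%. Averaged over both guides, FOS alone fell and 0 rose, against 2.25% and 1.74%. No gene of the 10 was higher at an unadjusted p below 0.05 in any of these limma comparisons, and edgeR and DESeq2 on the recovered reads called 0 higher as well. The 2 guides share the same NTC libraries, so their fold changes against NTC are not independent. In bulk RNA, fewer cells expressing a gene and less of its RNA per cell cannot be told apart.

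**Figure D1:**
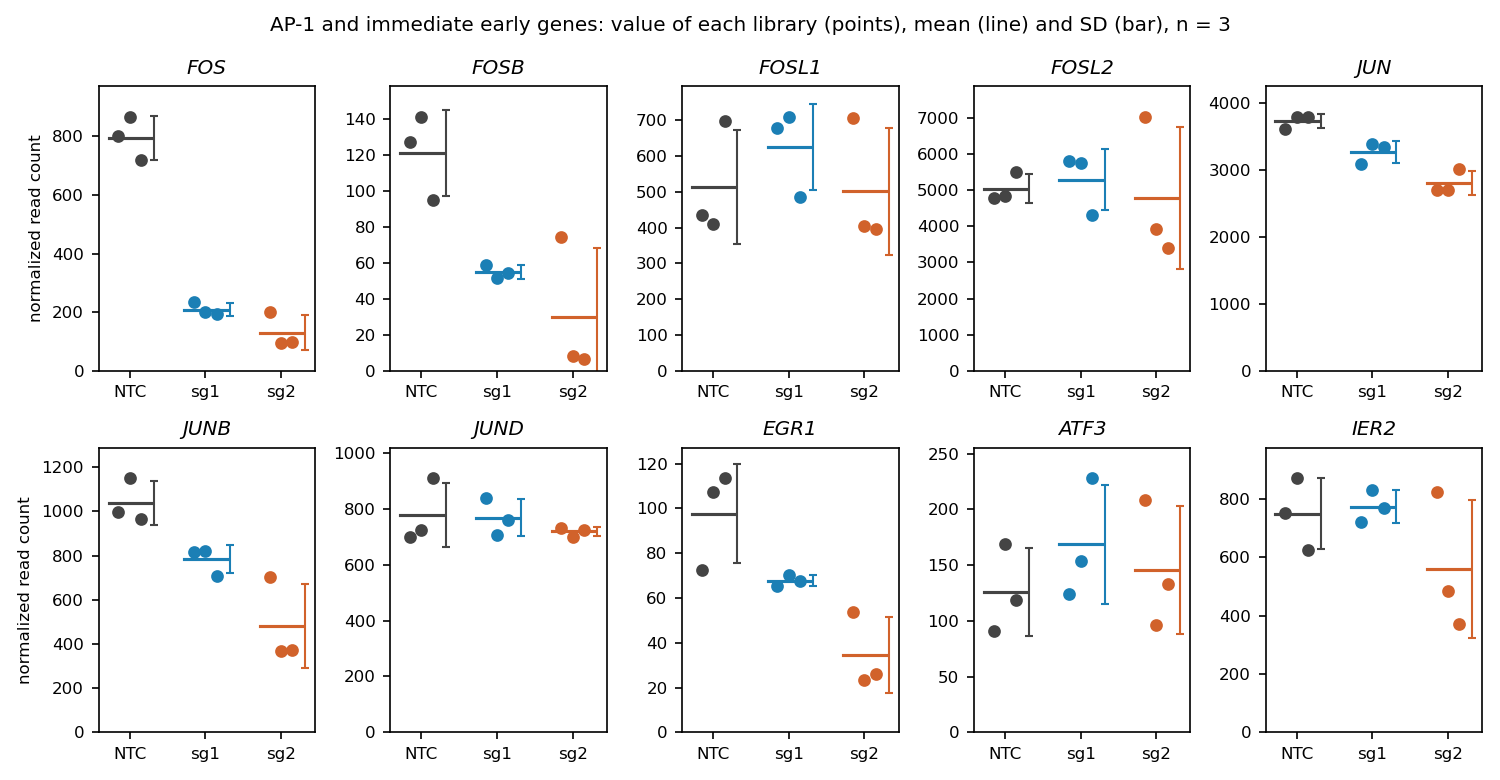
Normalized read count (vertical axis, from 0, own scale in each panel) of the 10 genes in NTC, sg1 and sg2; points are libraries 1, 2 and 3 from left to right, lines are means and bars are SD (n = 3, lower end not drawn below 0). FOS lies between 718 and 868 in NTC and between 93.8 and 234 in the 6 knockout libraries, while JUND keeps a similar level in all 3 groups.

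FOS encodes the founding FOS family subunit. Its normalized read count was 800.5, 868 and 718 in the control libraries, 234, 201 and 194 in sg1, and 199.8, 93.8 and 98.0 in sg2. Every knockout library lay far below every NTC library, and sg2-1 sat among the sg1 libraries while the other two sg2 libraries were lower still. On the log2(value + 1) scale FOS changed by -1.92 ± 0.259 (SE) with sg1 (3.79-fold lower, limma adjusted p = 0.0288) and by -2.69 ± 0.259 with sg2 (6.43-fold lower, adjusted p = 0.000681). The group means behind this were 795.5 ± 74.9 (NTC), 209.5 ± 21.5 (sg1) and 130.5 ± 60 (sg2; SD, n = 3 each). In the mean of both guides FOS fell by 2.30 ± 0.224, or 4.93-fold (adjusted p = 0.0019), and only 4 of the 15965 tested genes had a lower fitted value. The fall in the mean of both guides passed the threshold under all 19 alternatives tried, with adjusted p from 9.07e-17 to 0.0272 and log2 values from -2.48 to -2.21. It was -2.28 without sg1-3 and -2.45 without both sg1-3 and sg2-1. The call with sg1 alone was less firm. It was lost in all 6 fits that left out 1 NTC or 1 sg1 library (adjusted p from 0.0818 to 0.233). It was also lost with a replicate block in all libraries, and with libraries scaled to equal totals. In those 6 fits and with that block, 0 of the 15965 tested genes were called with sg1. The log2 value of FOS stayed between -2.002 and -1.856 in the 6 fits. At equal totals 112 genes were called, and FOS was at -1.704 (adjusted p = 0.0564).

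FOSB encodes a FOS family protein best known from long-lasting responses in neurons. Its normalized counts were 127, 142 and 95.03 (NTC), 59.0, 51.4 and 54.6 (sg1) and 74.3, 8.43 and 6.53 (sg2), the last values standing for 8 and 5 reads. All 6 knockout libraries lay below NTC, and sg2-1 lay above all sg1 libraries whereas sg2-2 and sg2-3 were nearly without FOSB reads. With sg2, FOSB fell by 2.79 ± 0.703 on the log2 scale (6.90-fold, limma adjusted p = 0.0382). With sg1 it was at -1.11 ± 0.703 (adjusted p = 0.294), with a 95% interval from -2.68 to 0.459. Over both guides it averaged -1.95 ± 0.609 (adjusted p = 0.103), a value that passed with the replicate block in sg1 and sg2 (adjusted p = 0.0479). On the recovered reads the value with sg2 was smaller, at -1.97 with edgeR (adjusted p = 0.119, not past the threshold) and -1.99 with DESeq2 (adjusted p = 0.0294). The limma call with sg2 was also lost at equal library totals (adjusted p = 0.0537), with only the 2 groups compared (adjusted p = 0.0964), and without any 1 of the 8 libraries other than sg2-1. Without sg2-1 the log2 fold change was -3.84 ± 0.238 with sg2 (adjusted p = 6.65e-06) and -1.11 ± 0.213 with sg1 (adjusted p = 0.00256).

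FOSL1 had counts of 434, 411 and 697 (NTC), 678, 709.6 and 486 (sg1) and 705.5, 404 and 394 (sg2). Each group held both high and low libraries, and the groups overlapped. Its log2 fold change was 0.30 ± 0.274 with sg1 (limma adjusted p = 0.454) and -0.05 ± 0.274 with sg2 (adjusted p = 0.935).

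FOSL2 had counts of 4787, 4831 and 5496 (NTC), 5797, 5745 and 4317 (sg1) and 7037, 3926 and 3392 (sg2). The highest and the lowest of all 9 libraries were both sg2 libraries, so the group mean of 4785 ± 1970 (SD, n = 3) describes none of them. Its gene span overlaps that of FOSL2-AS1, whose reads cannot be told apart from it where strand was not used. The log2 fold change was 0.06 ± 0.245 with sg1 (limma adjusted p = 0.88) and -0.15 ± 0.245 with sg2 (adjusted p = 0.753). Without sg2-1, FOSL2 with sg2 was at -0.46 ± 0.131 (adjusted p = 0.016). Unlike FOS and FOSB, neither of the FRA genes had a group of knockout libraries wholly below NTC; the difference between genes was not tested.

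JUN encodes the main partner of FOS. Its counts were 3619.7, 3797 and 3802 (NTC), 3088, 3398 and 3344 (sg1) and 2698, 2709 and 3014 (sg2). The 3 groups formed 3 steps without overlap, and the spread within each was small (SD 104, 165 and 179). With sg2, JUN fell by 0.42 ± 0.103 on the log2 scale, or 1.33-fold (limma adjusted p = 0.0357), and stood at -0.19 ± 0.103 with sg1 (adjusted p = 0.227) and averaged -0.30 ± 0.0889 over both guides (adjusted p = 0.0871). The sg2 call was lost with a replicate block in all libraries (adjusted p = 0.0703), with no filter on low values (adjusted p = 0.111) and with only the 2 groups compared (adjusted p = 0.117). It was also lost without any 1 of the 8 libraries other than sg2-1, and without sg2-1 the value with sg2 was -0.39 ± 0.0747 (adjusted p = 0.00207). The direction with sg1 depended on the scaling: with libraries scaled to equal totals, which moved the median of all tested genes to 0.201, JUN was at 0.026, still below that median.

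JUNB, a JUN family subunit that is itself an immediate early gene, had counts of 995, 1151 and 965 (NTC), 818, 821 and 709 (sg1) and 703, 369.9 and 375 (sg2). All 6 knockout libraries lay below NTC, and all sg2 libraries lay below all sg1 libraries. With sg2, JUNB fell by 1.17 ± 0.225 (2.24-fold, limma adjusted p = 0.0132) and stood at -0.40 ± 0.225 with sg1 (adjusted p = 0.243). Averaged over both guides it was at -0.79 ± 0.195 (adjusted p = 0.0555), which passed with the replicate block in sg1 and sg2 (adjusted p = 0.0292). The sg2 call was lost without NTC-1, NTC-2 or sg2-2 (highest adjusted p 0.0601). Without sg2-1 JUNB was lower with both guides, at -0.40 ± 0.0918 with sg1 (adjusted p = 0.00626) and -1.47 ± 0.103 with sg2 (adjusted p = 9.45e-06). Its gene span overlaps that of HOOK2, and no source used here says whether counting used strand, so reads in the overlap could belong to either gene.

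JUND, the JUN family member that is usually present at a steady level, had counts of 698, 723 and 909.6 (NTC), 837, 705 and 761 (sg1) and 732, 699.8 and 725 (sg2). The groups overlapped. The log2 fold change was -0.01 ± 0.13 with sg1 (95% interval -0.3 to 0.278, limma adjusted p = 0.959) and -0.10 ± 0.13 with sg2 (-0.391 to 0.187, adjusted p = 0.672).

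EGR1 is a zinc finger factor of the same early response, outside the AP-1 family. Its counts were 72.35, 107 and 114 (NTC), 65.2, 70.2 and 67.6 (sg1) and 53.9, 23.2 and 26.1 (sg2). The knockout libraries lay below all NTC libraries, narrowly for sg1, and the sg2 libraries lay below all sg1 libraries. With sg2, EGR1 fell by 1.55 ± 0.315 (2.93-fold, limma adjusted p = 0.0165). It stood at -0.50 ± 0.315 with sg1 (adjusted p = 0.295) and averaged -1.02 ± 0.273 over both guides (adjusted p = 0.0681). The sg2 call was lost with only the 2 groups compared (adjusted p = 0.0533) and without NTC-2, NTC-3, sg2-2 or sg2-3 (highest adjusted p 0.0784), and without sg2-1 the value was -1.92 ± 0.226 (adjusted p = 0.000119).

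ATF3, a stress-induced bZIP factor that can pair with JUN proteins, had counts of 91.0, 169 and 118 (NTC), 124, 154 and 228 (sg1) and 209, 95.9 and 133 (sg2). The groups overlapped widely. Its log2 fold change was 0.42 ± 0.334 with sg1 (limma adjusted p = 0.4) and 0.18 ± 0.334 with sg2 (adjusted p = 0.778). Without sg1-3, the highest of its sg1 libraries, ATF3 with sg1 was at 0.18 (limma adjusted p = 0.756).

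IER2, a small nuclear protein of the early response, had counts of 750.3, 871 and 626 (NTC), 721, 831 and 767 (sg1) and 823, 485 and 371 (sg2). The sg1 libraries lay within the NTC range, and of the sg2 libraries only sg2-1 did. IER2 stood at 0.06 ± 0.253 with sg1 (limma adjusted p = 0.89) and -0.49 ± 0.253 with sg2 (adjusted p = 0.257). Without sg2-1 its value with sg2 was -0.81 ± 0.151 (adjusted p = 0.00177).

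**Figure D2:**
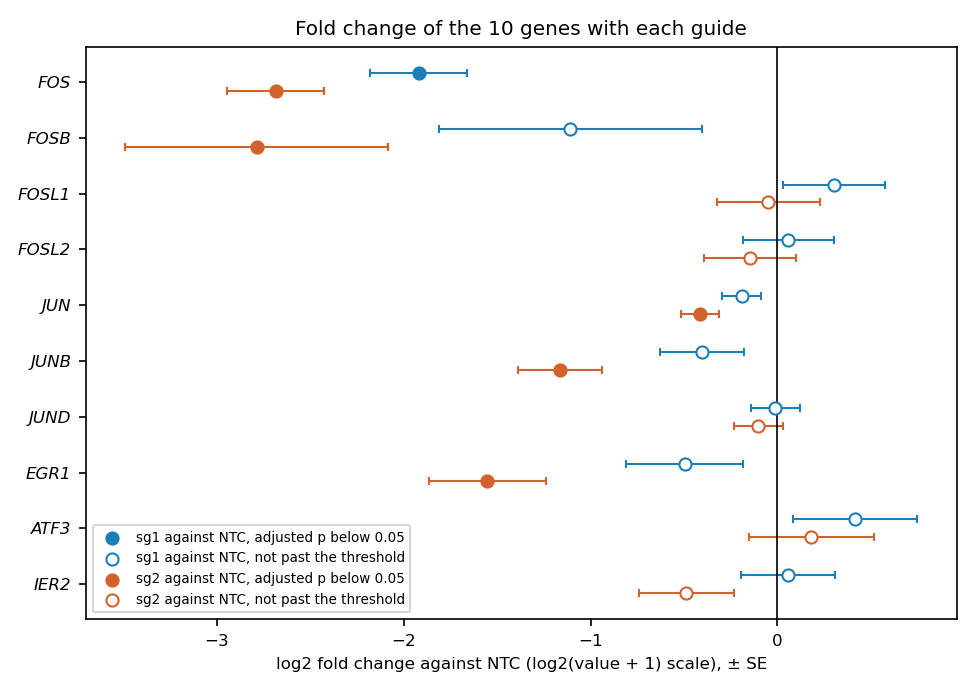
log2 fold change against NTC (horizontal axis, log2(value + 1) scale) of each gene with sg1 (blue) and sg2 (orange); bars are ± SE, and filled circles passed an adjusted p of 0.05. FOS lies far to the left with both guides, at -1.92 and -2.69; FOSB, JUN, JUNB and EGR1 are filled with sg2 only.

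Read as groups of libraries, 5 of the 10 genes had every sg1 library below every NTC library, against 29.4% of all tested genes. With sg2 it was 5 of 10 against 14.3%, and over both guides together 5 of 10 against 5.88%. They were FOS, FOSB, JUN, JUNB and EGR1 in each case. The median log2 fold change of the 10 genes was -0.101 (sg1), -0.451 (sg2) and -0.26 (both guides averaged), where the medians of all tested genes were -0.013, 0.0259 and 0.00145. Leaving out sg2-1 raised the number of genes called lower from 1 to 4 for sg1 (FOS, FOSB, JUN, JUNB), from 5 to 7 for sg2 (FOSL2 and IER2 added) and from 1 to 5 for the average of the guides (FOS, FOSB, JUN, JUNB, EGR1). Over all tested genes the calls rose too in that fit, from 31 to 6490 (sg1), from 1399 to 7160 (sg2) and from 636 to 3455 (average). With sg1-3 left out as well, 4, 7 and 6 of the 10 were called, against 6557, 8014 and 4186 of all 15965 tested genes.

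The guides were also set against each other. FOS, JUNB and EGR1 were lower with sg2 than with sg1, at -0.76 ± 0.259 (limma adjusted p = 0.0493), -0.76 ± 0.225 (adjusted p = 0.0337) and -1.055 ± 0.315 (adjusted p = 0.0347) on the log2 scale. These 3 of 10 genes lower and 0 higher compare with 11.5% of all tested genes lower and 18.3% higher. With edgeR all 3 missed the threshold (adjusted p 0.0792, 0.0507 and 0.0562), and JUN was the only gene of the 10 called. In the main limma fit JUN stood at -0.22 ± 0.103 (adjusted p = 0.114). It also passed with DESeq2, with TMM scaling, at equal library totals and without sg2-1. FOSB stood at -1.68 ± 0.703 (adjusted p = 0.0898) and passed with the replicate block in sg1 and sg2 (adjusted p = 0.0349). All 10 fitted values were below 0, with a median of -0.448, and JUN, JUNB and EGR1 had every sg2 library below every sg1 library, as did 18.2% of all tested genes.

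In most of the 10 genes the difference between the guides was carried mainly by libraries sg2-2 and sg2-3. These were the lowest of the 9 libraries for 7 of the 10 genes (FOS, FOSB, FOSL1, FOSL2, JUNB, EGR1, IER2), against 20.9% of all tested genes. JUN differed, with sg2-1 its lowest library at 2698, against 2709 in sg2-2 and 3014 in sg2-3. Against the NTC mean, FOSB stood at -3.68 and -4 on the log2 scale in sg2-2 and sg2-3 but at -0.68 in sg2-1, above the sg1 libraries at -1.20 to -1.01. Without sg2-1, 8 of the 10 genes were lower with sg2 than with sg1, the exceptions being JUND and ATF3. Over all tested genes, 4570 of 15965 were lower in that fit, against 1839 with all libraries. Without any 1 of the other 8 libraries, 0 or 1 of the 10 was lower, and in those 8 fits the only call was EGR1, without NTC-1. The genes called lower over all tested genes also became fewer there. They numbered 1034 to 1307 without an NTC library and 13 to 100 without an sg1 library, sg2-2 or sg2-3.

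**Figure D3:**
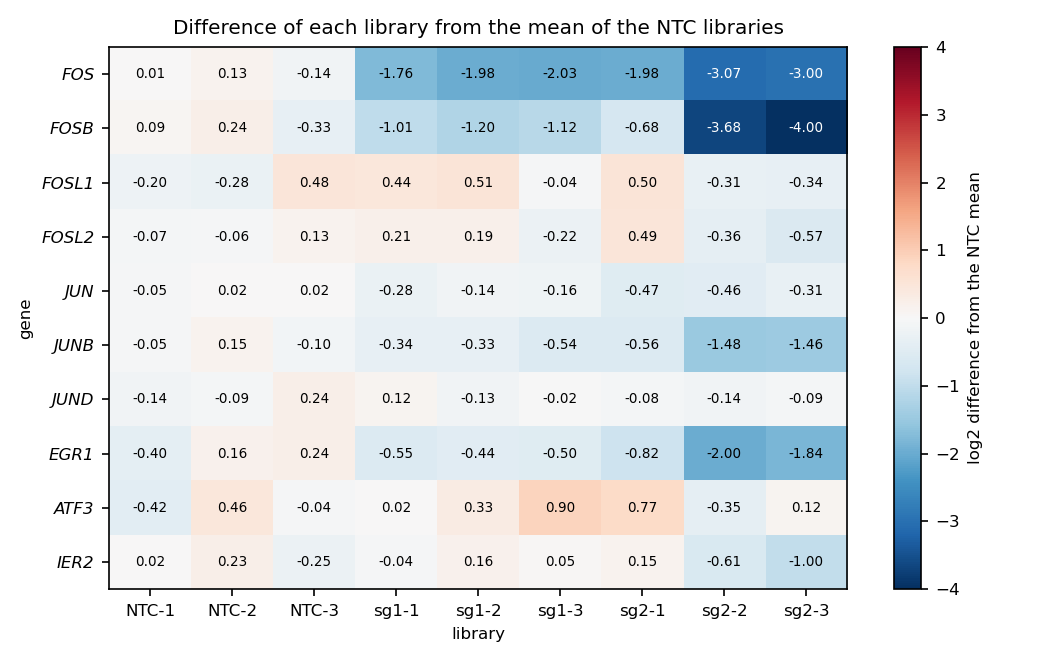
Difference of each library from the mean of the 3 NTC libraries on the log2(value + 1) scale, by gene (rows) and library (columns); blue is lower and red is higher, and the numbers are the values. FOS is below -1.7 in all 6 knockout libraries, and the columns sg2-2 and sg2-3 are the bluest.

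Several of the genes resembled each other across libraries. Over the 9 libraries, Pearson's r of log2 values was 0.98 between FOSB and JUNB, 0.97 between JUNB and EGR1 and 0.90 between FOS and JUNB. FOSL1 and FOSL2 resembled each other (0.86) more than FOSL1 resembled FOS (0.09), and ATF3 lay between -0.12 and 0.44 with all others. These values describe likeness over 9 libraries that fall into 3 groups and share their scaling, and carry no test. Among 9628 candidate genes, those most like FOS were CDIPT (0.972), SGPL1 (0.972), RHOBTB3 (0.968), GADD45A (0.963) and NAB2 (0.96). Their falls were smaller than that of FOS: NAB2, a transcriptional corepressor, averaged 913 (NTC), 629 (sg1) and 547 (sg2), and GADD45A, a stress-induced growth arrest gene, 756, 486 and 465. Those most like EGR1 were JMY (0.971), C1RL (0.965), A4GALT (0.964), GBP4 (0.959) and CDKN1A (0.959), which encodes the cell cycle inhibitor p21. Those most like JUN were TCN1 (0.989), IFNGR1 (0.983), IFITM1 (0.96), YIPF3 (0.954) and SHISA5 (0.952).

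Genes around the 10 were read from 6 lists. The other immediate early genes went both ways. Averaged over both guides, 2 of the 20 tested fell and 2 rose: KLF10, a TGF beta induced factor, by 0.62 ± 0.101 (limma adjusted p = 0.0115) and IER5L by 0.54 ± 0.105 (adjusted p = 0.0243), against rises of CYR61 by 0.88 ± 0.148 (adjusted p = 0.0139) and CTGF by 0.58 ± 0.137 (adjusted p = 0.0465), secreted matrix proteins known as targets of YAP. The mean of CYR61 was 842 ± 119 (NTC), 1227 ± 170 (sg1) and 1958 ± 371 (sg2; SD, n = 3). The list's median was 0.0593, and with sg2 alone 5 fell and 3 rose. Without sg2-1, 7 fell and 3 rose in the mean of both guides, and without sg1-3, 2 fell and 1 rose.

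Genes of negative feedback on ERK signalling, which are themselves induced by ERK, fell where they passed the threshold. Of the 14 tested, 3 fell in the mean of both guides and 0 rose: DUSP6, a phosphatase of ERK, by 1.01 ± 0.18 (limma adjusted p = 0.0171), SPRED1, an inhibitor of RAF activation, by 0.67 ± 0.0982 (adjusted p = 0.00734) and SPRY1, a Sprouty inhibitor, by 0.58 ± 0.134 (adjusted p = 0.0441). The mean of DUSP6 was 18060.0 ± 2340 (NTC), 9372 ± 1020 (sg1) and 8711 ± 2290 (sg2). At an unadjusted p below 0.05, 9 were lower and 0 higher, where 20.9% of all tested genes reached that p in either direction. The list's median was -0.424 and all tested genes' 0.00145. edgeR and DESeq2 each called 6 lower and 0 higher, and limma called 10 lower without sg2-1 and 2 lower without sg1-3. Of all 15965 tested genes, these fits called 434, 851, 1846 and 242 lower, in the same order. The list was drawn up with earlier results of these libraries known and is not independent evidence of its direction.

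Genes known as AP-1 targets went both ways. Of the 15 tested, 2 fell and 1 rose in the mean of both guides, with a median of 0.0681. CXCL8, the chemokine interleukin 8, fell by 1.32 ± 0.259 (limma adjusted p = 0.0248), with means of 2207 ± 199 (NTC), 1545 ± 217 (sg1) and 556 ± 305 (sg2). TIMP1, an inhibitor of metalloproteases, fell by 0.69 ± 0.114 (adjusted p = 0.0126), and HMOX1, heme oxygenase, rose by 0.85 ± 0.153 (adjusted p = 0.0186). Without sg2-1, 4 fell and 2 rose, against 1846 and 1609 of all 15965 tested genes. Without sg1-3, 1 fell and 1 rose, against 242 and 200.

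The other bZIP partners, the upstream factors and kinases and the proteins that bind AU-rich elements had no gene past the threshold in the mean of both guides. Of 17 other bZIP genes, 0 were called by limma, edgeR or DESeq2 in that mean, and 0 passed at an unadjusted p below 0.05. The most abundant, NFE2L1 and NFE2L2, stood at -0.02 ± 0.0925 and -0.26 ± 0.118. With sg2 alone limma called 1 of the 17 lower and 1 higher, against 4.57% and 4.19% of all tested genes. With sg2 against sg1 it called 2 lower and 4 higher, against 11.5% and 18.3%. An average of the guides does not show such differences. Of 16 tested upstream genes, limma and edgeR called 0 and DESeq2 called 1 lower and 1 higher, and limma at an unadjusted p below 0.05 had 1 in each direction. The kinase MAP2K2 (MEK2) stood at -0.0039 ± 0.0881. Its mRNA level says nothing of kinase activity, which was not measured. Of 8 genes for AU-rich element binding proteins, limma and edgeR called 0, DESeq2 called 1 lower, and 1 was lower at an unadjusted p below 0.05. ELAVL1 (HuR), which stabilizes such mRNAs, stood at 0.04 ± 0.118, and KHSRP, which promotes their decay, at 0.19 ± 0.135. Without sg2-1, limma called 1 bZIP gene higher and 1 upstream gene lower and 2 higher in the mean of both guides. That fit called 1846 lower and 1609 higher of all 15965 tested genes.

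**Figure D4:**
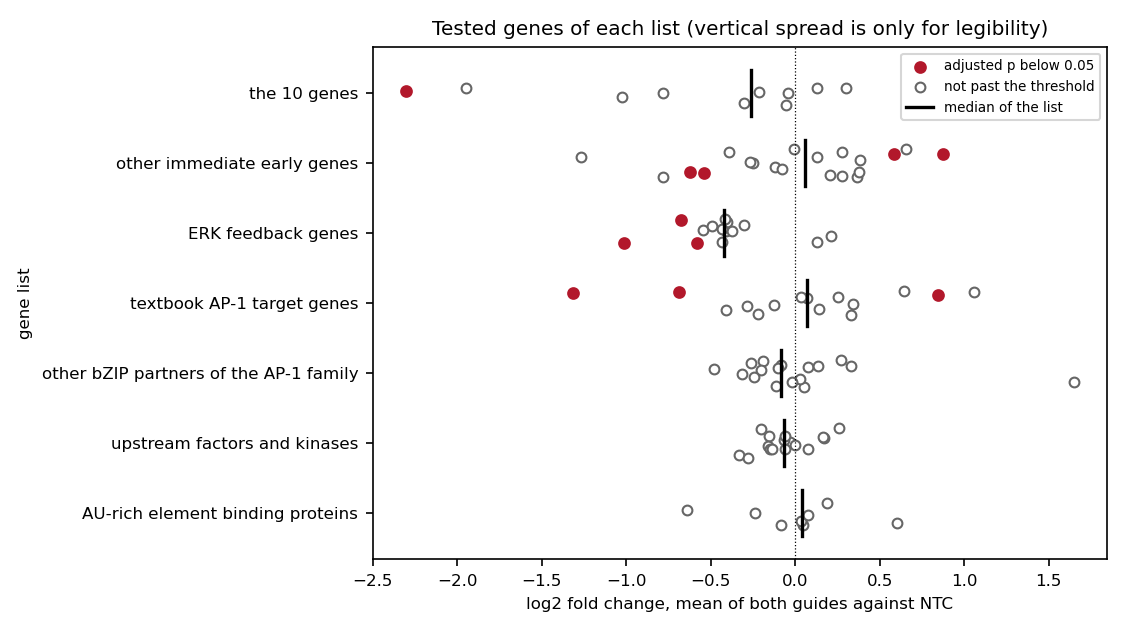
log2 fold change in the mean of both guides against NTC (horizontal axis) of the tested genes of each list (rows); red points passed an adjusted p of 0.05 and black lines are list medians. FOS is the leftmost point of the plot at -2.30, and the ERK feedback genes, median -0.424, lie mostly left of 0.

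In the MeRIP-seq lists, m6A summits were found in 8 of the 10 genes in control cells and in 6 in KD cells. FOSL1 and ATF3 had no summit in either list. Each list comes from 1 pull-down and its input, so there is no replicate error, no test, and no comparison was made of scores between lists. Why a summit is missing from a list was not tested. Of the 12 NTC summits in these genes, 6 had a KD summit within 100 nt (50%, exact binomial 95% interval 21.1 to 78.9%, counting error only, with several summits sharing a gene), against 47.0% of all 8377 NTC summits (46 to 48.1%). Positions are on hg38 as in the lists, and the spans are RefSeq gene spans with introns included. Exons and UTRs were not assigned.

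FOS carried 1 summit in each list, at chr14:75281183-75281183 in NTC and 38 nt further at chr14:75281221-75281221 in KD, 2355 and 2393 bases from the gene start and 1047 and 1009 bases before its end. The −log10 scores, the authors' own values, were 5.11 in NTC, above 26.3% of that list, and 7.89 in KD, above 60.1% of that list. The summit was thus still listed in KD cells. FOSB was the opposite case. Its NTC summits lay at chr19:45468370-45468370 (score 14.14, above 85.1% of the NTC list) and chr19:45472990-45472990 (score 6.86), and no KD summit was found in the gene. FOSB mRNA in the KD cells was not analysed here.

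JUN held 1 summit per list, 3 nt apart, at chr1:58782170-58782170 in NTC (score 5.63) and chr1:58782167-58782167 in KD (score 2.23). JUNB held 3 NTC summits and 2 KD summits. Its strongest was kept to within 1 nt, at chr19:12792801-12792801 in NTC (score 12.73, above 80.0% of that list) and chr19:12792800-12792800 in KD (score 16.25, above 95% of its list). The next JUNB pair lay 106 nt apart, just outside the limit of 100 nt, and the weakest NTC summit (score 1.36) had no KD partner; these other JUNB summits also lie in the HOOK2 span. JUND held a single NTC summit with a score of 1.35, near the lowest score of 1.3 in the lists, and no KD summit.

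FOSL2 held NTC summits at chr2:28412485-28412485 and chr2:28413126-28413126, of which the former had a KD summit 2 nt away. EGR1 had 1 NTC summit at chr5:138467065-138467065 with a KD summit 55 nt away, and a further KD summit at chr5:138467972-138467972 that lay 907 nt from it. IER2 had 1 summit per list, 91 nt apart. Among the 5 genes whose knockout libraries all lay below NTC, FOS, JUN and EGR1 each had their NTC summit matched, JUNB had 1 of 3 matched and FOSB 0 of 2, so genes with lower mRNA had both matched and unmatched summits. The KD and knockout lines carry different labels, so mRNA and summits are not known to come from the same cells.

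**Figure D5:**
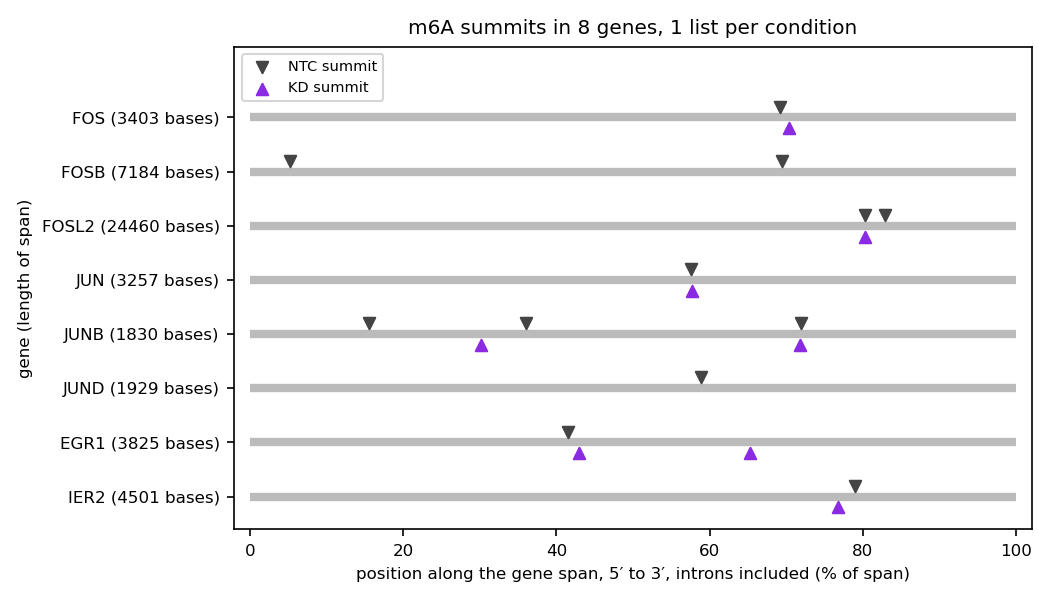
Position of the NTC (grey, pointing down) and KD (purple, pointing up) m6A summits along the span of each gene, from 5′ to 3′ in percent of its length. FOS, JUN, JUNB and FOSL2 each have a pair that nearly coincides, FOSB and JUND have NTC summits only, and most summits lie past the middle of the span.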

How the data were processed

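RNA-seq of 9 libraries (3 each of NTC, sg1 and sg2) and 2 MeRIP-seq summit lists were used, with groups and replicate numbers taken from the sample titles. STAR, HTSeq, DESeq2, cutadapt, FastQC 0.11.8, MACS2 and the build hg38 are named, without roles or settings, per the submitters' processing notes. The authors deposited gene values in a normalized signal unit. Judged from the values, each library's read counts had been divided by a single factor, since 100.0% of them came out as whole reads within 0.1 read. In NTC-2 that factor is near 1, so its recovery is less certain. Each summit in the deposited lists has a position and a −log10 score from the authors, with 1 list per condition. MeRIP-seq depth is unknown here.

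The 15965 genes reaching a value of 10 in 3 or more libraries were tested with limma 3.58.1 (R 4.3.3, trended prior) on log2(value + 1), the 3 groups fitted together without covariates. Adjusted p values are Benjamini-Hochberg over all tested genes, with a threshold of 0.05. edgeR 4.0.16 and DESeq2 1.42.0 on recovered reads, other scalings, pseudocounts of 0.5 and 8, fits with a replicate block and fits without each library were alternatives. The scripts were tested on simulated data. Deviations from the group means correlated between sg1 and sg2 libraries of the same number (0.219, 0.156 and 0.258, against -0.303 to -0.01 for different numbers). This pairing comes from the data and not the labels. It entered only the alternative fits with a replicate block, and the main fits, also between guides, leave it out. NTC paired with neither guide (-0.131 to 0.02).

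The members, the gene lists and the tests were chosen with earlier results of these data known. All 10 members are named; of each list, up to 4 genes past the threshold in the mean of both guides, otherwise the 2 most abundant (1 of these is not reported here); and for FOS, EGR1 and JUN the 5 protein-coding genes most alike by Pearson's r among genes with a mean of at least 100. Promoter windows, gene spans and gene types are from RefSeq on GRCh38.p14. Of the lists, IER3 and RPS6KA1, and of the leukocyte markers HBB, are not analysed here. Read counts were not compared between genes, since transcript lengths were not used here. Tests of the other lists under alternatives were added after seeing the data.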

Additional observations from a re-analysis of the deposited data

Results flagged for a closer look

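The guides, both labelled as the same genotype, differed in 3 of the 10 genes by a direct limma test of sg2 against sg1. FOS was at -0.76 on the log2 scale (130.5 ± 60 with sg2 against 209.5 ± 21.5 with sg1, SD, n = 3; adjusted p = 0.0493), lower in 2 of 3 sg2 libraries than in every sg1 library. JUNB was at -0.76 (482.6 ± 191 against 782.7 ± 63.4; adjusted p = 0.0337) and EGR1 at -1.055 (34.4 ± 17 against 67.7 ± 2.5; adjusted p = 0.0347), both lower in 3 of 3 sg2 libraries. In each of these genes sg2-1 was the highest sg2 library, and the SD with sg2 exceeded that with sg1. Across the 20 alternatives the adjusted p ran from 1.12e-05 to 0.184 for FOS, from 2.19e-06 to 0.136 for JUNB and from 0.000327 to 0.14 for EGR1. The cause was not tested.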

How the results depend on the processing

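FOS kept its call with sg2 under all 20 alternatives and in the mean of both guides under all 19; its sg1 call was lost in 8 of 20. The number of the 10 genes called with sg1 (1) was 0 at equal library totals, 3 with only the 2 groups compared, 0 with the replicate block in all libraries, 0 to 4 when a library was left out, and 4 without sg1-3 and sg2-1. With sg2 (5) it was 2 with only the 2 groups compared and 1 to 7 when a library was left out. In the mean of both guides (1) it was 4 with DESeq2, 3 with the replicate block in sg1 and sg2 only, 1 to 5 when a library was left out and 6 without sg1-3 and sg2-1. Between guides (3) it was 1 without the filter on low values, 1 with edgeR (JUN) and 0 with only the 2 groups compared. It was 0 to 8 when a library was left out and 7 without sg1-3 and sg2-1. The highest count in each range is the fit without sg2-1. The calls over all tested genes moved in the same fits, given here in the same order. With sg1 (31) they were 112, 5978, 0, 0 to 6490 and 6557. With sg2 (1399) they were 639 and 355 to 7160, and in the mean of both guides (636) 1590, 750, 30 to 3455 and 4186. Between guides (4758) they were 3215 (of 38616 without the filter), 4380, 3, 17 to 10037 and 10213. The replicate block in sg1 and sg2 changed no calls of the 10 genes other than those of FOSB and JUNB given above. With a minimum score of 10, 1 of 2 NTC summits in these genes had a KD summit within 100 nt. The exact binomial interval, as above, was 1.26 to 98.7%, against 68.3% of all 2769 NTC summits with such a score. With a limit of 50 nt it was 4 of 12 (9.92 to 65.1%), against 38.7% of all 8377 NTC summits. A limit of 200 nt gave 7 of 12 (27.7 to 84.8%), against 52.3%.

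Signs changed only in values that had not passed the threshold as reported. With sg1, equal totals gave JUN 0.026 and JUND 0.21; JUND was 0.026 with TMM scaling, 0.020 with edgeR and 0.021 with DESeq2. Leaving out a library gave JUND -0.083 to 0.11, IER2 -0.067 to 0.17 and FOSL2 -0.014 to 0.20. With sg2 it gave ATF3 -0.11 to 0.45, FOSL1 -0.32 to 0.19, JUND -0.17 to 0.017 and FOSL2 -0.46 to 0.064, and without sg1-3 and sg2-1 ATF3 was -0.11. In the mean of both guides, FOSL2 was 0.051 at equal totals, 0.0091 with edgeR and 0.020 with DESeq2, JUND was 0.038 at equal totals, and leaving out a library gave FOSL1 -0.013 to 0.37, FOSL2 -0.20 to 0.062 and JUND -0.13 to 0.062. Between guides, leaving out a library gave ATF3 -0.53 to 0.030 and FOSL2 -0.52 to 0.0049. The cause of these changes was not tested. Depth limits FOSB and EGR1 most, with 5 to 22 reads in sg2-2 and sg2-3.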
